A study of Rattus norvegicus with 8 samples.

Results

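The 5 mature miRNAs described here, rno-miR-23a-3p, rno-miR-23b-3p, rno-miR-27a-3p, rno-miR-27b-3p and rno-miR-24-3p, come from a pair of paralogous miRNA clusters. They were chosen by name from the deposited count table of small RNA in exosomes, the small vesicles that cells release. The rule took rat rows whose name, without the ending that records a length variant, is one of the 5, and summed them. The prefix rno-, for rat, is left out below. The rule found 6 rows out of 1512, which make 5 names out of 1273 (415 of them rat names). The exosomes came from rat nucleus pulposus cells (NPC, 4 libraries), which fill the soft centre of the intervertebral disc, and from rat nucleus pulposus progenitor cells (NPPC, 4 libraries). The labels name no treatment, genotype, strain, age or sorting marker. Nor do they tell whether replicates stem from distinct cultures or rats, so the p-values below reflect only variation among these libraries, and that variation may be technical.

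A miRNA guides the silencing machinery to messenger RNAs that pair with its seed, the bases near its 5′ end, so miRNAs with the same seed are predicted to share targets. Mammals carry one cluster with the hairpins mir-23a, mir-27a and mir-24-2 and another with mir-23b, mir-27b and mir-24-1. Each is transcribed as 1 primary RNA, from which the hairpins are cut. miR-23 is known to repress glutaminase, miR-27 to repress the adipogenic receptor PPARG and, in chondrocytes, the collagenase MMP13, and miR-24 to repress cell cycle genes such as E2F2. The clusters are also known from endothelial and blood cells.

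The mature sequences, from RefSeq (build GRCr8), are shown with the seed, bases 2 to 8, in capitals, because the seed sets which members can share targets.
miR-23a-3p: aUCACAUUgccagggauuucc
miR-23b-3p: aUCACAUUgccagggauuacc
miR-27a-3p: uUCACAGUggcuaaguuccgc
miR-27b-3p: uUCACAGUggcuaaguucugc
miR-24-3p: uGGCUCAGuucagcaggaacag
The members fall into 3 seed groups, the miR-23 pair, the miR-27 pair and miR-24-3p alone.

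The paralogs are shown again with the base that tells them apart in capitals, because the split of counts between them rests on it.
miR-23a-3p: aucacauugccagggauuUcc
miR-23b-3p: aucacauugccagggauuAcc
miR-27a-3p: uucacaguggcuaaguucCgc
miR-27b-3p: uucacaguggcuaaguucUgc
Counted from the 5′ end, the miR-23 paralogs differ by U19A and the miR-27 paralogs by C19U, so the first 18 of 21 bases are the same within each pair. The deposited rows differed in their 3′ ends. The row of miR-23a-3p was 1 base longer than the RefSeq sequence and that of miR-23b-3p was 2 bases longer, while that of miR-27a-3p was 1 base shorter and that of miR-27b-3p had the same length. Both rows of miR-24-3p were 2 bases shorter.

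In the deposited table the miR-23a cluster lies on the plus strand of chromosome 19, from 25318582 to 25318970, with mir-27a starting 154 bases and mir-24-2 starting 281 bases after mir-23a. The miR-23b cluster lies on the plus strand of chromosome 17, from 823213 to 824039, with mir-27b starting 209 bases and mir-24-1 starting 747 bases after mir-23b. The genome build of these coordinates is not given in the sources used here. By gene order in RefSeq (GRCr8), the first cluster lies in no protein-coding gene, between Zswim4 and Nanos3, and the second lies within the span of Aopep, which encodes aminopeptidase O. That table gives gene spans only, so exon or intron was not determined. miR-24-3p is encoded in both clusters, and its 2 rows, 1 per hairpin, held equal values in 8 of 8 libraries. Their sum was a whole number in 8 of 8 libraries, so each row held an equal part of 1 pool and the summed value does not tell which hairpin it came from.

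The paralog pairs also shared reads. Both miR-23 rows ended in 0.5 in 4 libraries (NPC replicates 1 and 4, NPPC replicates 1 and 4) and neither did in the other 4, and their sum was whole in all 8. For the miR-27 pair both rows ended in 0.5 in 5 libraries, and the sum was again whole in all 8. Counts divided evenly between paralogs have this form, and how many were divided cannot be read from the table, so each paralog's own count is less certain than the sum of its pair.

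Library totals ranged from 329011 to 681591 counts in NPC and from 819845 to 1416940 in NPPC exosomes, with the shallowest NPPC library above the deepest NPC library. NPC replicate 1 stood apart. Its TMM factor (edgeR's scaling of a library's total) was 1.64, where the others lay between 0.871 and 1.01. How far each of 278 rat names lay from its own mean tracked its GC percent with a Spearman rho of 0.855 in this library and -0.62 to -0.047 in the others. That mean includes NPC replicate 1, and names are not independent replicates.
Marker miRNAs of other cells were low. The endothelial markers miR-126a-3p and miR-126a-5p summed to 277 to 756 CPM (counts scaled by TMM to a common library size) in NPC and 461 to 679 CPM in NPPC exosomes. The 3 leukocyte markers found of 4 (without miR-223-3p) summed to 18.6 to 214 and 81.7 to 171 CPM, and the 4 red cell markers to 373 to 583 and 198 to 1416 CPM. Epithelial markers (3 found of 5) summed to at most 89.5 CPM and the liver marker reached at most 32.1 CPM. Mesenchymal markers (5 of 5) summed to 142416 to 215324 CPM in NPC and 176317 to 190738 CPM in NPPC exosomes. The 4 cartilage markers summed to 11468 to 16159 and 8645 to 9286 CPM, a range that did not overlap between the groups. Of the 390 single names tested, 10.8% had CPM that did not overlap between the groups. No marker that entered edgeR's test passed at an adjusted p under 0.05, where 0.256% of all names passed. Of the 3 leukocyte markers found, 2 entered that test. The part of the cartilage markers, of depth and of NPC replicate 1 in the differences below was not tested, beyond the values given without that library.

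Together the 5 miRNAs held a mean of 10.5% ± 2.18 (SD, n = 4) of the counts in NPC libraries, against 9.13% ± 0.119 (SD, n = 4) in NPPC libraries. By library the sum was 13.6%, 10.2%, 8.69% and 9.48% in NPC replicates 1 to 4, and 8.98%, 9.26%, 9.18% and 9.13% in NPPC replicates 1 to 4. The NPPC libraries lay within the range of the NPC libraries, and NPC replicate 1 was the highest by this share. After TMM scaling NPC replicate 1 was instead the lowest library, at 16.35 log2 CPM, where the others lay between 16.44 and 16.67.

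The miR-23 pair was led by its a paralog. miR-23a-3p, from the cluster on chromosome 19, held 1.34%, 1.30%, 1.41% and 1.65% of counts in NPC replicates 1 to 4 and 1.36%, 1.41%, 1.40% and 1.53% in NPPC replicates 1 to 4. The groups overlapped, and the means were 1.43% ± 0.153 (SD, n = 4) and 1.42% ± 0.0734 (SD, n = 4). miR-23b-3p, its paralog on chromosome 17, held 0.608%, 0.494%, 0.560% and 0.565% in NPC and 0.557%, 0.642%, 0.730% and 0.746% in NPPC replicates 1 to 4. NPPC replicates 2 to 4 were above all NPC libraries, and NPPC replicate 1 was within their range. The miR-23b-3p means were 0.557% ± 0.0471 (SD, n = 4) and 0.669% ± 0.0874 (SD, n = 4). Summed, the pair held 1.79% to 2.21% of NPC and 1.91% to 2.27% of NPPC counts.

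The miR-27 pair was led by its b paralog. miR-27b-3p held 7.96%, 6.60%, 5.47% and 5.85% in NPC and 5.27%, 5.49%, 5.46% and 5.25% in NPPC replicates 1 to 4. The lowest NPC library met the NPPC range, and the other NPC libraries lay above it. After TMM scaling NPC replicate 1 was instead the lowest library for miR-27b-3p, at 48777 CPM, against 52266 to 67508 CPM in the others. miR-27a-3p held 1.02%, 0.632%, 0.487% and 0.545% in NPC and 0.648%, 0.696%, 0.640% and 0.681% in NPPC replicates 1 to 4. NPC replicate 1 was the highest of all 8 libraries, while the other NPC libraries were all below the NPPC libraries. The miR-27a-3p means were 0.670% ± 0.239 (SD, n = 4) and 0.666% ± 0.0267 (SD, n = 4). As counts, miR-27a-3p was 3349.5, 3904.5, 3316 and 2928.5 in NPC and 5314, 7593.5, 9068 and 8928.5 in NPPC replicates 1 to 4, in libraries of unequal depth.

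miR-24-3p, the member of both clusters, was high in 1 NPC library. It held 2.71%, 1.17%, 0.756% and 0.882% in NPC and 1.14%, 1.02%, 0.945% and 0.925% in NPPC replicates 1 to 4. NPC replicate 1 held more than any other library, and the other NPC libraries spanned the NPPC range. The means were 1.38% ± 0.905 (SD, n = 4) and 1.01% ± 0.0964 (SD, n = 4). The deposited miR-24-3p sequence had the highest GC content of the members, 55.0%, against 45.5% for miR-23a-3p, 47.8% for miR-23b-3p, 50.0% for miR-27a-3p and 47.6% for miR-27b-3p. The part of the GC trend of NPC replicate 1 in its high miR-24-3p share was not tested.

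**Figure D1:**
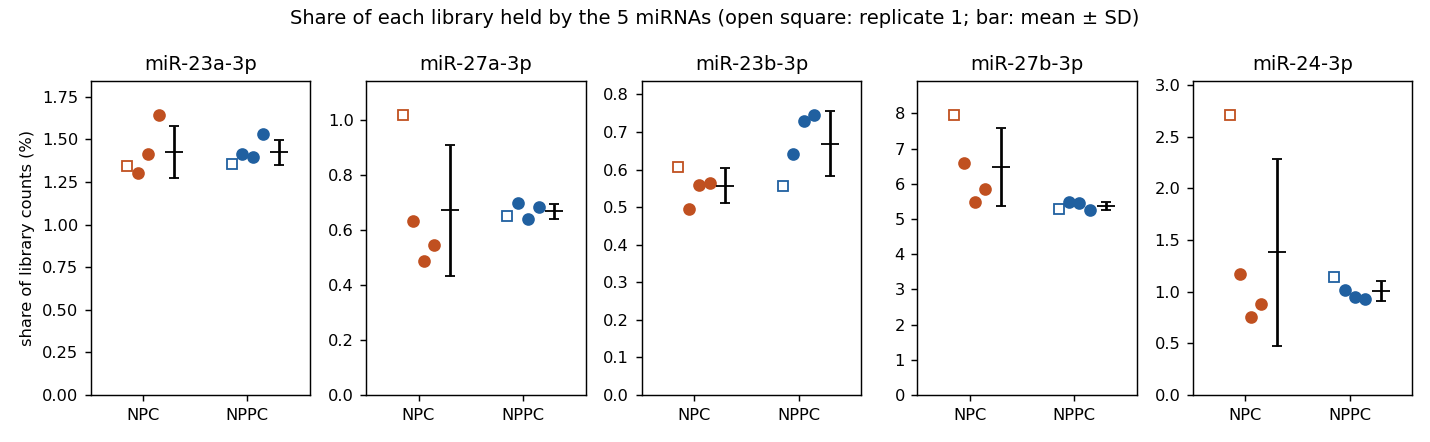
Share of all counts of a library (percent, y axis, from 0) for each of the 5 miRNAs in NPC and NPPC exosomes; each point is 1 library, the open square is replicate 1, and the bar is the mean ± SD of 4 libraries. By this share NPC replicate 1 is the highest library for miR-27a-3p, miR-27b-3p and miR-24-3p, at 1.02%, 7.96% and 2.71%. After TMM scaling it is instead the lowest library for miR-27b-3p, at 48777 CPM.

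By mean share of counts the order was miR-27b-3p, miR-23a-3p, miR-24-3p, miR-27a-3p and miR-23b-3p, at 5.92%, 1.43%, 1.19%, 0.668% and 0.613% over all 8 libraries. These are counts of mature RNAs of nearly equal length, and differences in how well each RNA is ligated and copied were not measured. miR-27b-3p was above miR-23a-3p in 8 of 8 libraries, and miR-24-3p was above miR-27a-3p in 8 of 8. miR-23a-3p was above miR-24-3p in 7 of 8, the exception being NPC replicate 1, with 8923 counts of miR-24-3p and 4421.5 of miR-23a-3p. miR-27a-3p was above miR-23b-3p in 4 of 8 libraries, so these neighbours did not differ beyond their spread. Among 415 rat names miR-27b-3p ranked 2 to 4 by library, miR-23a-3p 11 to 18, miR-24-3p 9 to 23, miR-27a-3p 19 to 32 and miR-23b-3p 25 to 35.

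**Figure D2:**
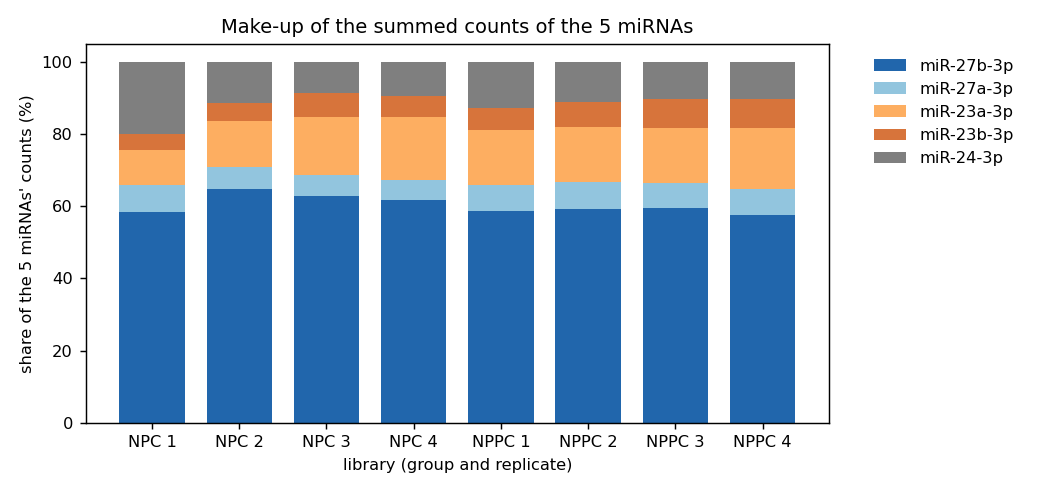
Make-up of the summed counts of the 5 miRNAs (percent, y axis) in each of the 8 libraries (x axis). miR-27b-3p takes 57.5% to 64.7% in every library, and miR-24-3p takes 19.9% in NPC replicate 1 and 8.70% to 12.7% in the other libraries.

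The series compared NPPC with NPC exosomes. All 5 miRNAs passed the filter on low counts and 0 of 5 passed edgeR's quasi-likelihood test at a Benjamini-Hochberg adjusted p under 0.05, where 0.256% of the 390 names tested passed. An unadjusted p under 0.05 was reached by 0 of 5 members, against 10.5% of all names (41). With the replicate number as a block it was reached by 1 of 5 members, miR-23b-3p, and by 48 names in all, and over all alternatives by 0 to 2 of 5. The CPM of the groups failed to overlap for 0 of 5 members, against 10.8% of all names. The 1 name that passed, miR-146a-5p, is no member. That count was 0 with the replicate number as a block and 0 without any single library other than NPC replicate 1. Adjusted p in the next paragraph is that of edgeR with this adjustment over all names. In bulk exosome RNA, more vesicles carrying a miRNA and more copies per vesicle cannot be told apart.

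On the scale of log2 fold change of NPPC over NPC, miR-23b-3p had 0.47 ± 0.22 (SE, adjusted p = 0.458). Its TMM-scaled level was 3724, 5055, 6441 and 5857 CPM in NPC and 5521, 6927, 8199 and 8504 CPM in NPPC replicates 1 to 4. NPPC replicates 2 to 4 were again above the NPC libraries, and NPPC replicate 1 was not, while the NPPC library was the higher in 4 of 4 same-numbered pairs. With the replicate block it had 0.48 ± 0.14 (SE, unadjusted p = 0.0154, adjusted p = 0.278, edgeR). miR-27a-3p had 0.27 ± 0.13 (SE, adjusted p = 0.458), with 6237, 6462, 5597 and 5645 CPM in NPC and 6422, 7510.4, 7187 and 7763 CPM in NPPC replicates 1 to 4. The groups met at a single pair of libraries, NPC replicate 2 and NPPC replicate 1, and here too the NPPC library was the higher in 4 of 4 same-numbered pairs. With the replicate block miR-27a-3p had 0.27 ± 0.15 (SE, unadjusted p = 0.123, adjusted p = 0.449, edgeR). miR-23a-3p had 0.17 ± 0.23 (SE, adjusted p = 0.729), miR-27b-3p had -0.044 ± 0.14 (SE, adjusted p = 0.881) and miR-24-3p had -0.097 ± 0.21 (SE, adjusted p = 0.842). For these members the NPPC library was the higher in 3, 1 and 2 of 4 same-numbered pairs, in that order. The labels do not pair the libraries, and the share of all names with 4 of 4 such pairs was not determined.
The median of the 5 was 0.17, beside -0.038 over all names tested and 0.19 over rat names. Total count scaling moved the median of all names to -0.29. Under it miR-23b-3p had 0.26, miR-27b-3p -0.27 and miR-24-3p -0.46, while miR-23a-3p and miR-27a-3p turned to -0.0038 and -0.011. A correction for GC content turned miR-23a-3p to -0.11 and miR-24-3p to 0.058.

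Without NPC replicate 1 the log2 fold changes were 0.34 for miR-23b-3p, 0.30 for miR-27a-3p, 0.0042 for miR-23a-3p, -0.12 for miR-27b-3p and 0.14 for miR-24-3p, so that of miR-24-3p turned in sign. None passed there either (adjusted p = 0.158 for miR-27a-3p and 0.285 for miR-23b-3p, edgeR). With neither library numbered 1, a setting chosen after the data were seen, edgeR called 42 of 423 names. Of the members miR-27a-3p was higher in NPPC exosomes there, by 0.38 ± 0.090 (SE, adjusted p = 0.0376, where its adjusted p over all alternatives ran from 0.0376 to 0.985), and miR-23b-3p had 0.48 (adjusted p = 0.0589).

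**Figure D3:**
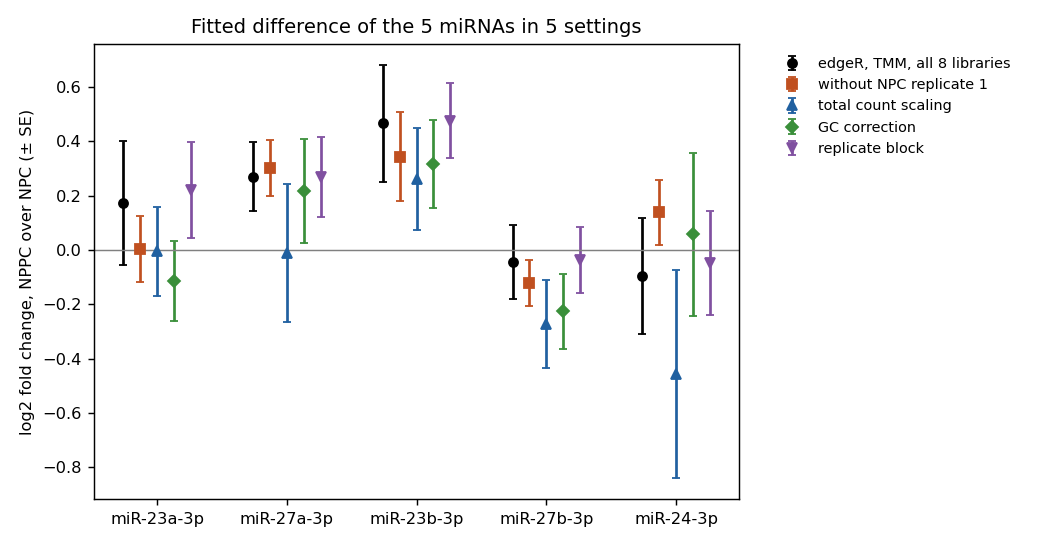
Log2 fold change of NPPC over NPC (y axis, ± SE) for the 5 miRNAs in 5 settings of the edgeR fit. miR-23b-3p lies above 0 in each setting shown, from 0.26 to 0.48, and miR-24-3p lies between -0.46 and 0.14.

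Ratios within a library need no scaling between libraries, and 10 were compared between the groups on the log2 scale with two-sided exact permutation tests over 70 arrangements. The smallest p this design allows is 0.0286, and 0 of 10 ratios passed after Benjamini-Hochberg adjustment over the 10. With that smallest p a ratio could pass only if most of the 10 reached it together, so this count of 0 says little.
Between paralogs, miR-23b-3p stood at 0.452, 0.380, 0.396 and 0.344 counts per count of miR-23a-3p in NPC and at 0.411, 0.454, 0.522 and 0.488 in NPPC replicates 1 to 4. NPPC replicates 2 to 4 were above all NPC libraries. The log2 ratio differed by 0.26 (NPPC minus NPC), with means of -1.35 ± 0.16 (SD, n = 4) and -1.10 ± 0.15 (SD, n = 4), exact permutation p = 0.0571 and adjusted p = 0.143.

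For the miR-27 paralogs the b form exceeded the a form 7.82, 10.4, 11.2 and 10.7 times in NPC and 8.14, 7.88, 8.53 and 7.70 times in NPPC replicates 1 to 4. NPC replicate 1 lay among the NPPC libraries and the other NPC libraries lay above them. The log2 ratio differed by -0.31 (exact permutation p = 0.114, adjusted p = 0.229). Without NPC replicate 1 it differed by -0.42 and the groups did not overlap (exact permutation p = 0.0286, adjusted p = 0.179). Counting error of the log2 ratio was at most 0.039 for the miR-23 paralogs and 0.028 for the miR-27 paralogs, under the spread between libraries. That error leaves out the reads divided between paralogs, whose number is not known.

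Within the cluster on chromosome 17, miR-27b-3p stood at 13.1, 13.4, 9.77 and 10.3 counts per count of miR-23b-3p in NPC and at 9.47, 8.54, 7.48 and 7.03 in NPPC replicates 1 to 4. Every NPPC library was below every NPC library, but the lowest NPC and the highest NPPC library nearly met, at 9.77 and 9.47. In NPC exosomes the log2 ratio was 3.53 ± 0.23 (SD, n = 4), while in NPPC exosomes it was 3.01 ± 0.19 (SD, n = 4). The difference was -0.51, with an exact permutation p of 0.0286 and an adjusted p of 0.0952. Without NPC replicate 1 it was -0.45, and the groups still did not overlap (exact permutation p = 0.0571, adjusted p = 0.179). Within the cluster on chromosome 19, miR-27a-3p stood at 0.758, 0.486, 0.344 and 0.331 counts per count of miR-23a-3p in NPC and at 0.478, 0.492, 0.458 and 0.446 in NPPC replicates 1 to 4. The NPPC libraries lay inside the NPC range, and the log2 ratio differed by 0.048 (exact permutation p = 0.971, adjusted p = 0.971). Whether the 2 clusters differed in this respect was not tested.

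miR-24-3p per count of the summed miR-23 pair was 1.39, 0.652, 0.383 and 0.399 in NPC and 0.595, 0.495, 0.444 and 0.407 in NPPC replicates 1 to 4. Only in NPC replicate 1 did miR-24-3p exceed the pair. The log2 ratio differed by -0.35 (exact permutation p = 0.629, adjusted p = 0.786), and by 0.050 without that library. Against the summed miR-27 pair it was 0.302, 0.162, 0.127 and 0.138 in NPC and 0.192, 0.165, 0.155 and 0.156 in NPPC replicates 1 to 4. That log2 ratio differed by -0.041 (exact permutation p = 0.943, adjusted p = 0.971), and by 0.23 without NPC replicate 1.

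**Figure D4:**
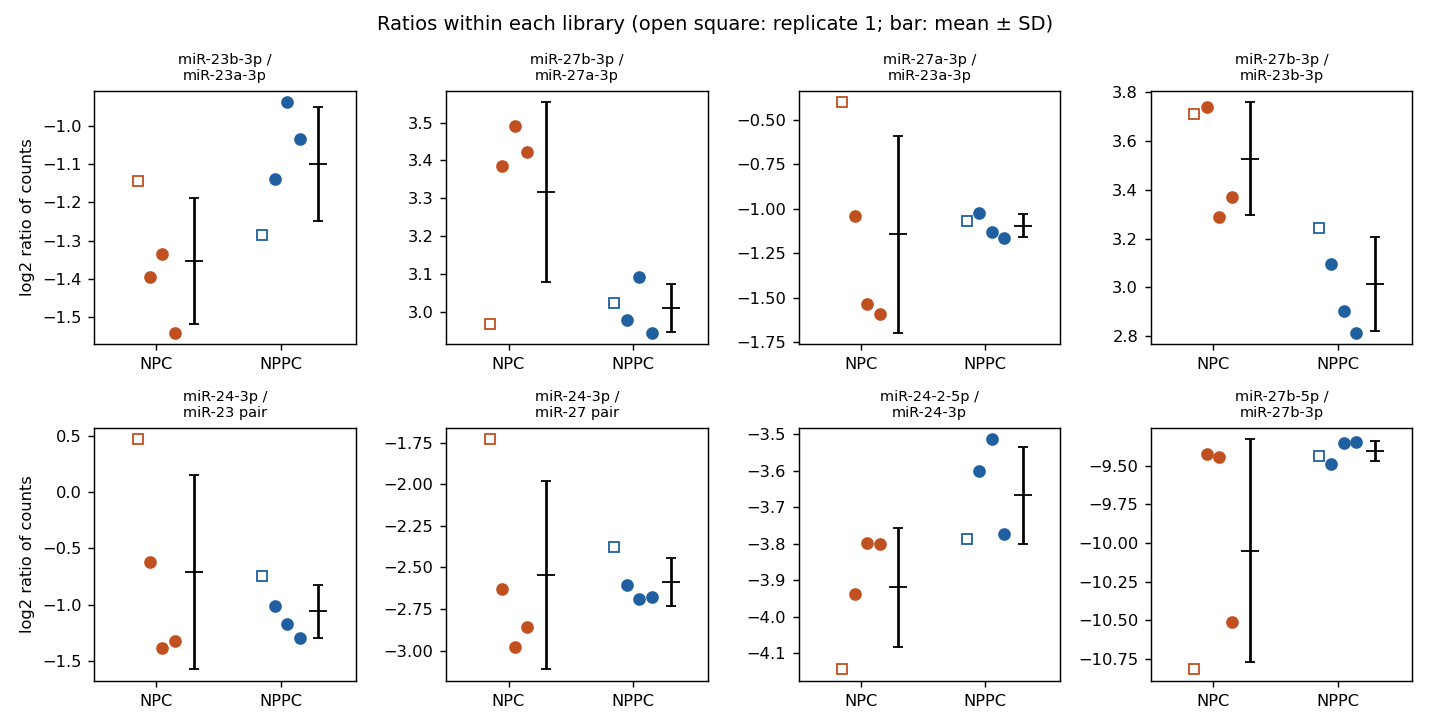
Log2 ratio of counts within each library (y axis, a separate scale in each panel) for 8 of the 10 ratios in NPC and NPPC exosomes; each point is 1 library, the open square is replicate 1, and the bar is the mean ± SD of 4 libraries. The groups do not overlap for miR-27b-3p over miR-23b-3p (means 3.53 and 3.01) and for miR-24-2-5p over miR-24-3p (means -3.92 and -3.67).

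Each hairpin also yields an RNA from its 5′ arm, usually the strand that is degraded. The 5p arms of mir-24-1 and mir-24-2 are shown with the bases after their shared start in capitals (RefSeq, GRCr8), because they tell the hairpins apart where the 3p sequence cannot.
miR-24-1-5p: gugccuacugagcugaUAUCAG
miR-24-2-5p: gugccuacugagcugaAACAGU
miR-24-2-5p, from the cluster on chromosome 19, had 504, 471, 370 and 340 counts in NPC and 676, 915, 1172 and 887 in NPPC replicates 1 to 4. miR-24-1-5p, from chromosome 17, had 0, 7, 0 and 5 counts in NPC and 19, 0, 11 and 28 in NPPC replicates 1 to 4. mir-24-2 thus gave 96.9% to 100% of the miR-24 5p counts in every library, while the table divides the 3p counts evenly between the hairpins. The sequence listed with the counts of miR-24-1-5p began 1 base before the RefSeq sequence shown and ended 1 base earlier. That of miR-24-2-5p was the one shown. Values above 0 and under 5 made up 402 of 5804 in the table and the smallest was 1.25, so low values were listed. A 0 in a library of limited depth still does not show absence.

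As a percentage of miR-24-3p, miR-24-2-5p stood at 5.65%, 6.51%, 7.18% and 7.17% in NPC and at 7.24%, 8.24%, 8.75% and 7.31% in NPPC replicates 1 to 4. The groups did not overlap, but the highest NPC and the lowest NPPC library nearly met. The log2 ratio was -3.92 ± 0.16 (SD, n = 4) and -3.67 ± 0.13 (SD, n = 4), a difference of 0.25 with an exact permutation p of 0.0286 and an adjusted p of 0.0952. It differed by 0.18 without NPC replicate 1 (exact permutation p = 0.143).

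The other 5p arms were scarce. miR-27b-5p had 14, 59, 53 and 21 counts in NPC and 62, 83, 118 and 105 in NPPC replicates 1 to 4, which is 0.0534% to 0.153% of miR-27b-3p. miR-27a-5p had 7 to 33 counts in NPC and 0 to 36 in NPPC libraries, miR-23b-5p 7 to 13 and 0 to 19, and miR-23a-5p 0 to 12 and 0 to 8. Of the 6 arms, 3 passed the filter on low counts and none passed edgeR's test. miR-24-2-5p had a log2 fold change of 0.19 ± 0.18 (SE, adjusted p = 0.644), miR-27b-5p 0.43 ± 0.43 (SE, adjusted p = 0.652) and miR-27a-5p -0.87 ± 0.97 (SE, adjusted p = 0.675).
For the 5p over 3p ratio of miR-23b the groups did not overlap, at 0.550%, 0.262%, 0.341% and 0.230% in NPC and 0.131%, 0, 0.164% and 0.194% in NPPC replicates 1 to 4. The two-sided exact permutation p was 0.0286 and the adjusted p 0.0952. The counts behind it were at most 19, and a library's counting error on the log2 scale was at least 0.33. The ratio of miR-27a-5p to miR-27a-3p (exact permutation p = 0.229, adjusted p = 0.327) and that of miR-27b-5p to miR-27b-3p (exact permutation p = 0.143, adjusted p = 0.238) overlapped between the groups.

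Beyond the members, no rat miRNA in RefSeq carried bases 2 to 8 of a member at the same positions. miR-128-3p, a miRNA abundant in brain, carries bases 3 to 8 of miR-27 (CACAGU) 1 base nearer its 5′ end, shown in capitals. The base before them matches too, so it holds all of bases 2 to 8 of miR-27, shifted by 1 base.
miR-128-3p: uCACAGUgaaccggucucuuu
It had 404, 572, 452 and 513 counts in NPC and 629, 787, 903 and 831 in NPPC replicates 1 to 4, far under miR-27b-3p in every library. Its log2 fold change was -0.21 ± 0.16 (SE, adjusted p = 0.596, edgeR). miR-222-5p carries bases 3 to 8 of miR-24-3p in the same way and has no value here. No row named after another species had the name of a member or held bases 2 to 15 of one, and 1 row named after human miR-24-2-5p held 5 counts in 1 library.

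On the log2 CPM scale the sum of the 5 members varied by only 0.32 over the 8 libraries. Among 163 rat names with a mean of at least 100 CPM, the 5 whose log2 CPM most resembled it by Pearson correlation over the 8 libraries were miR-322-5p (0.91), miR-140-5p (0.90), miR-196b-5p (0.87), let-7c-5p (0.87) and let-7a-5p (0.86). The Spearman correlations were 0.40, 0.98, 0.83, 0.62 and 0.62 in the same order. These names varied more than the sum, by 1.14, 1.92, 1.83, 2.86 and 3.04 in log2 CPM over the 8 libraries. Without NPC replicate 1 the Pearson values were 0.75, 0.87, 0.70, 0.66 and 0.66. The libraries share their depth and scaling factor across names, so the values describe likeness in these libraries alone.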

How the data were processed

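Small RNA of rat exosomes was sequenced in 4 NPC and 4 NPPC libraries. Per the labels' protocols, libraries were made with a TruSeq small RNA kit, and the submitters' processing notes name CASAVA 1.8. The genome build, aligner and miRBase version were not given in the sources used here. Estimated counts, 1 value per row and library, were deposited by the authors, and 82.3% of those above 0 were whole within 1e-09. The authors also deposited a scaled signal, equal to the count times 1 factor per library, and a GC percent of each hairpin, which was not used.

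Rows were summed per mature name, with the species prefix kept and candidates as deposited, and rounded. edgeR 4.0.16 in R 4.3.3 compared the groups by its quasi-likelihood test (two-sided, no covariate) after TMM scaling and filterByExpr, and p-values were adjusted by Benjamini-Hochberg over 390 names. SE is the fold change over the root of the test's F. Shares are percent of all counts, without a test. Ratios used a pseudocount of 0.5 and an exact permutation test in Python 3.11.15, and log2 CPM for likeness a prior count of 2. Arm ratios were taken where the 5p arm had at least 10 counts in at least 4 libraries. The edgeR pipeline was tested on simulated counts, drawn with a single dispersion and without a library that stood apart as NPC replicate 1 did. DESeq2 1.42.0 and limma 3.58.1 served as alternatives, with other scalings, filters, sums, a GC correction (loess, span 0.75), a replicate block and the removal of single libraries. The authors' scaling, the removal of both libraries numbered 1 and a blocked form of the ratio test were chosen after seeing the data.

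The replicate numbers come from the sample titles. Over all names tested, deviations from the group mean of same-numbered libraries correlated at 0.56, 0.12, 0.37 and 0.24 for numbers 1 to 4, each above 0.1. By that limit alone the numbers were treated as a possible pairing, which the labels do not state. NPC replicates 1 and 3 correlated best with their own number in NPPC, NPC replicate 2 with number 4 and NPC replicate 4 with number 2. For replicates 2 and 4 the best match thus did not follow the number, and a pairing is not established. The tests reported have no block, and the blocked fit is an alternative. The members, lists and naming rule (the 5 members, the 5p arms of their hairpins, miRNAs sharing a seed, and the 5 names most alike) were chosen with earlier results of these data known.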

Additional observations from a re-analysis of the deposited data

Results flagged for a closer look

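Of 42 groups of 4 libraries examined (levels, ratios and 5p counts), 2 contained a library well away from its group. By chance about 1 group in 20 would. The log2 ratio of miR-23b-5p to miR-23b-3p was -13.77 in NPPC replicate 2, where the 5p arm was listed at 0, and -9.46 to -8.97 in the other NPPC libraries. The log2 ratio of miR-27a-5p to miR-27a-3p was -13.38 in NPPC replicate 1, where the 5p arm was also listed at 0, and -8.12 to -7.93 in the other NPPC libraries. Both values are set by the pseudocount of 0.5 and measure no level.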

How the results depend on the processing

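The number of names with an adjusted p under 0.05 was 1 in edgeR, 8 without a filter, 6 with the DESeq2 Wald test, 0 with the replicate block, 0 with rows as deposited, and 42 with neither library numbered 1. With a library left out it ran from 0 to 1. The number at an unadjusted p under 0.05 was 41, and ran from 23 to 118 over the 23 alternatives. At the adjusted threshold the replicate block changed no other call. At an unadjusted p under 0.05 it moved miR-23b-3p past the threshold and the count of names to 48, and every ratio then had an exact permutation p of at least 0.125, the smallest that 16 sign flips allow.

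miR-23b-3p kept its sign in all 23 alternatives, with log2 fold changes from 0.26 to 0.65 and adjusted p from 0.0589 to 0.810, and reached an unadjusted p under 0.05 in 9 of them, as miR-27a-3p did in 6. miR-27a-3p turned in 1, to -0.011 with total count scaling, and passed in 1, with neither library numbered 1 (0.38). miR-23a-3p turned to -0.0038 with total count scaling, -0.11 with the GC correction and -0.10 with that correction and the replicate block. miR-27b-3p turned to 0.073 without a filter, 0.056 with rows as deposited, 0.012 with equal sequences counted once, 0.029 with the authors' scaling, and 0.022, 0.048 and 0.076 without NPC replicate 2, NPC replicate 3 or NPPC replicate 1, within -0.12 to 0.076 over the libraries left out. miR-24-3p turned to 0.018 without a filter, 0.026 with rows as deposited, 0.058 with the GC correction, 0.14 with that correction and the replicate block, 0.14 without NPC replicate 1 and 0.15 with neither library numbered 1, and ran from -0.17 to 0.14 over the libraries left out. The cause was not tested.

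Of the 10 ratios, 7 kept their sign in all 15 alternatives. With a library left out, the difference of miR-27a-3p over miR-23a-3p ran from -0.10 to 0.30, that of miR-24-3p over the miR-23 pair from -0.57 to 0.050 and that over the miR-27 pair from -0.18 to 0.23, the last being 0.16 with neither library numbered 1. Differences in share moved by less than the spread between libraries in all 10 alternatives, though the small ones changed sign in 4 for miR-23a-3p, 3 for miR-27a-3p and 1 for miR-24-3p. The 5p arms other than miR-24-2-5p had at most 118 counts in any library, and the part of depth in this was not tested.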
